A study of Mus musculus with 98 samples.

Results

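The response of stimulated, empty-vector hippocampal neurons to tau was measured in 6 RNA-seq libraries of the 98 in the series, chosen by their labels: 3 libraries of neurons given the tau material labelled hAD-tau and 3 given PBS, the buffer control. All 6 cultures were mouse primary hippocampal neurons that carried a PhP.eB empty vector (labelled Mock), were labelled as stimulated, and were sampled on day 21 of culture. Per the labels' protocols, virus was added on day 5 for 48 h and tau or PBS on day 7. The nature of the stimulation is not given in the sources used here, and the strain (CD1, embryonic) is stated for the unstimulated cultures only. Nothing in the labels says that replicates came from separate cultures, so p-values measure the spread between these libraries, which may be technical. For comparison there were 6 stimulated libraries with a virus carrying Acss2 (upACSS2; 3 tau, 3 PBS), 6 unstimulated empty-vector libraries of day 21 (3 tau, 3 PBS), and 7 day 21 libraries of an experiment without virus (4 tau, 3 PBS).

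Tau, encoded by Mapt, binds and stabilises microtubules, and its aggregates collect in neurons in Alzheimer's disease. Added tau aggregates can be taken up by cultured neurons and can seed aggregation of the cells' own tau. Electrical or chemical stimulation of neurons switches on immediate early genes such as Fos and Egr3 through calcium signalling, and these encode transcription factors that act on later effector genes. Hippocampal cultures also hold astrocytes and oligodendrocyte-lineage cells, which supply lactate, clear glutamate and respond to injury. In bulk RNA, fewer cells of a type and less RNA per cell cannot be told apart.

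The 6 libraries held 18804544 to 39985460 counts. Fos lay at 1590.1, 1379.5 and 1352 CPM (counts scaled to a common library size) in tau and at 1465, 1388 and 1679.9 CPM in PBS, against 22.3 to 83.2 CPM in the 6 unstimulated vector libraries, a table scaled separately. Acss2 lay at 40.1 to 57.9 CPM in the 6 libraries, against 2079 to 5462 CPM in the 6 stimulated libraries with the Acss2 virus, so the labels of the virus hold in each library. Mapt lay at 493, 552 and 525 CPM in tau and at 467, 520.0 and 479 CPM in PBS, and its log2 fold change was 0.10 ± 0.10 (SE; edgeR adjusted p 0.566). Mouse Mapt mRNA says nothing of the added tau material. Summed CPM of 16 pan-neuronal genes ranged from 8345 to 10230 in tau and from 8653 to 9805 in PBS, and none of the 16 passed the test.

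Tau changed 451 of 14939 genes tested, 188 higher (1.26% of the genes tested) and 263 lower (1.76%) (edgeR's quasi-likelihood test on counts, all 12 stimulated libraries in 1 fit, Benjamini-Hochberg adjusted p under 0.05, two-sided), or 3.02% of the genes tested. The median log2 fold change was 0.69 among the genes that rose and −0.80 among those that fell. The lowest adjusted p in either direction was 0.0222. The 3 tau and the 3 PBS libraries did not overlap for any of the 451 genes. Over all genes tested they did not overlap for 3987, or 26.7% (13.6% above and 13.1% below PBS). Same-numbered tau and PBS libraries deviated together from their group means most clearly in number 2 (correlation across genes 0.326). Numbers 1 and 3 gave 0.134 and 0.123. Tau replicate 3 with PBS replicate 1 gave 0.117, and tau replicate 1 with PBS replicate 3 gave 0.0992, so the pairing rests mainly on number 2. The replicate number was also fitted as a block over all 12 stimulated libraries. With the block 1069 genes passed, 499 higher (3.34%) and 570 lower (3.82%), or 7.16% of those tested, and all 451 were among them. With the block in a fit of these 6 libraries alone 143 genes passed of 14477 tested (0.988%; 82 higher, 0.566%, and 61 lower, 0.421%), 94 of them among the 451. Of the 28 genes with the largest changes, 14 passed in that fit and 14 did not. In that fit without the block 0 passed, with a lowest adjusted p of 0.0938 in edgeR (2949 at an unadjusted p under 0.05; DESeq2 on all 12 libraries called 1521).

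Tau replicate 3 lay furthest from PBS: it was the highest of the 3 tau libraries for 148 of the 188 genes that rose and the lowest for 213 of the 263 that fell. Leaving out tau replicate 1, tau replicate 3, PBS replicate 1 or PBS replicate 3 left 0 genes past the threshold. Leaving out tau replicate 2 raised the count to 1293 and leaving out PBS replicate 2 raised it to 1142. Replicate 2 of both groups stood apart in its oligodendrocyte-lineage genes, with a summed level of 3201 CPM in tau and 3501 CPM in PBS against 1294 to 1836 CPM in the other 4 libraries. None of the 15 genes of that lineage passed the test.

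**Figure D1:**
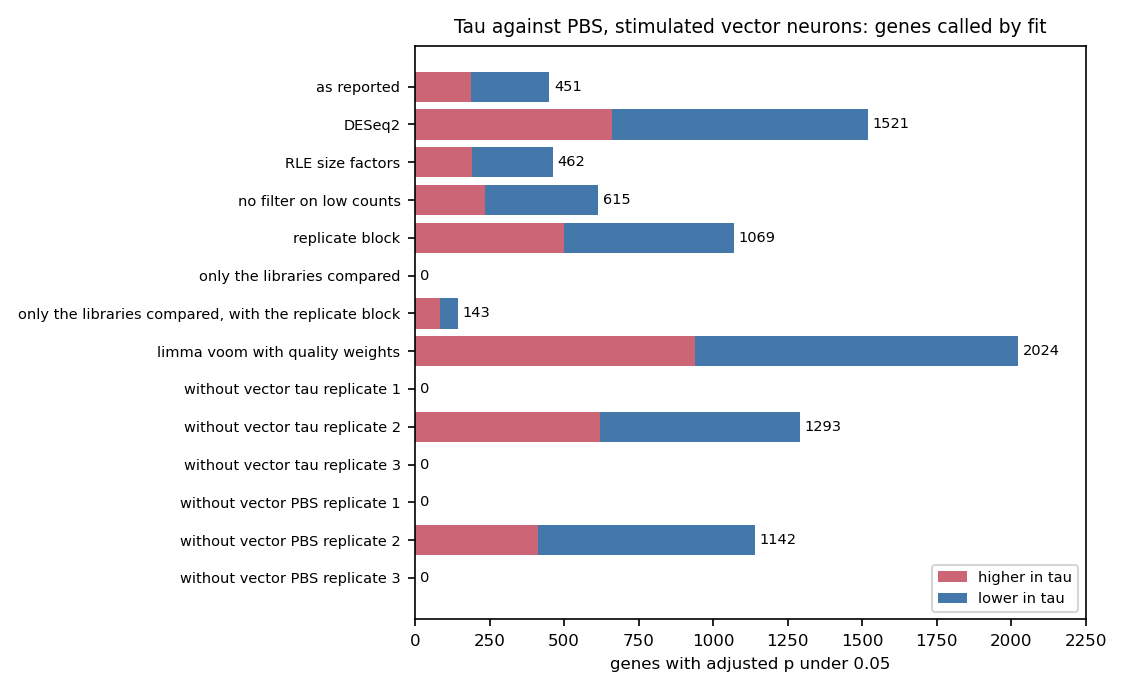
Number of genes with an adjusted p under 0.05 (x axis) in each fit of tau against PBS in stimulated vector neurons, split into genes higher and lower in tau. The count is 451 as reported, 1069 with the replicate block, 0 in the fit of the 6 libraries alone and 0 without tau replicate 1, tau replicate 3, PBS replicate 1 or PBS replicate 3.

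Promoter sequences are shown for a few of the genes described below. No measurement here bears on what binds them. Hypoxia-inducible factors are transcription factors that bind a short core, ACGTG, in the control regions of genes for glucose uptake, glycolysis, blood vessel growth and mitochondrial turnover. In 300-base promoters from RefSeq (GRCm38.p6, 250 bases before to 50 after each start), the core was sought on both strands. It was present in 19.6% of 32851 promoters, in 24.6% of the 15017 that belong to genes tested, in 14 of the 21 promoters (66.7%) found for 15 of 18 listed hypoxia-inducible factor targets, and in 17 of the 36 (47.2%) found for 23 of 25 listed genes of glucose use. Both lists were compiled from known biology, so a high share is a property of the lists. The promoters of Hk2, of 3 listed genes discussed with it, and of Papss2, a gene that fell, are shown with each ACGTG core, on either strand, in capitals.
Hk2 promoter, chr6:82774405-82774704, minus strand: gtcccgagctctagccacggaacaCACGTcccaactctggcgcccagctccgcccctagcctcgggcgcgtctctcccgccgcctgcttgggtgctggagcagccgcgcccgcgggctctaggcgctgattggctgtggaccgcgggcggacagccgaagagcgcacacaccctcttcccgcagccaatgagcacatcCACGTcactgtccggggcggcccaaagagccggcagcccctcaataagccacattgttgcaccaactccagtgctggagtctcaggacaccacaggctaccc
Higd1a promoter, chr9:121857747-121858046, minus strand: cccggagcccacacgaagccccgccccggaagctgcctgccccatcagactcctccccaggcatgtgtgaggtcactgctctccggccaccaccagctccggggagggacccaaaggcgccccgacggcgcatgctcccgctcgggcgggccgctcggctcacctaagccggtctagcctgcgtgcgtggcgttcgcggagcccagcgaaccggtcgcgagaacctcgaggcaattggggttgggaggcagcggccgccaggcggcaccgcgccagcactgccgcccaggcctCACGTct
P4ha2 promoter, chr11:54100674-54100973, plus strand: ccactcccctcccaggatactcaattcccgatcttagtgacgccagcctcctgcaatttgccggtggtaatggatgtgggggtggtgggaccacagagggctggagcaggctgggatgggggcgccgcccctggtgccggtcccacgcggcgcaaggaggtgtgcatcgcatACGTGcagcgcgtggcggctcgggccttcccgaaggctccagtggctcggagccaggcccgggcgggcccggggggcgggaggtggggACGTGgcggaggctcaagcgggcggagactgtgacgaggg
Pgk1 promoter, chrX:106186850-106187149, plus strand: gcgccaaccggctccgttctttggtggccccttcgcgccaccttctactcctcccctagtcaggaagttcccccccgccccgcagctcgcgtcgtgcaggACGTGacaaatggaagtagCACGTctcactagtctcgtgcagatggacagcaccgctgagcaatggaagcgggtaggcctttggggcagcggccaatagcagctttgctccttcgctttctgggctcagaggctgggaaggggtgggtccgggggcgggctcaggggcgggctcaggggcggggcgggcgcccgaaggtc
Papss2 promoter, chr19:32595465-32595764, plus strand: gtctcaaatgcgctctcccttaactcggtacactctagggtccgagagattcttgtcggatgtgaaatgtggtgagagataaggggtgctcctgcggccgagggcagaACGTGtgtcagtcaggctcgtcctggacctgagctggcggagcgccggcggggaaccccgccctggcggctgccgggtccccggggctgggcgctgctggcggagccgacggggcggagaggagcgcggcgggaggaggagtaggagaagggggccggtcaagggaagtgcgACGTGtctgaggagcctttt
The windows shown for Hk2, P4ha2, Pgk1 and Papss2 held 2 cores each and that of Higd1a held 1. Another Papss2 promoter, chr19:32619755-32620054, held 0 and is not shown. Of the 28 genes with the largest changes, 23 had a promoter in the table, and 5 of their 30 promoters (16.7%) held the core, 2 of 14 among genes that rose and 3 of 16 among genes that fell. The cAMP response element TGACGTCA was in 0 of the 30 (1.79% of all promoters) and the AP-1 site TGANTCA in 1 (7.81% of all promoters). A match is a description of letters, and none of these windows was tested for binding.

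Several genes of glucose use and of the hypoxia response were higher with tau. Hk2 (GRCm38 chromosome 6, 82725025 to 82774454, minus strand), hexokinase 2, catalyses the first step of glycolysis and is a known hypoxia-inducible factor target. It measured 22.4, 11.2 and 44.3 CPM in tau replicates 1 to 3 and 4.09, 2.41 and 6.92 CPM in PBS. Every tau library lay above every PBS library, by a log2 fold change of 2.56 ± 0.52 (SE, n = 3 each; edgeR adjusted p 0.0371, and 0.00387 with the block in the 6 libraries alone, the lowest of that fit). Higd1a, a mitochondrial protein induced by low oxygen, measured 128, 90.2 and 122 CPM in tau and 73.8, 69.5 and 84.7 CPM in PBS. It rose by 0.57 ± 0.13 on the log2 scale (edgeR adjusted p 0.0414, and 0.0518 with the block in the 6 libraries alone).

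Of 17 hypoxia-inducible factor targets tested, 1 rose (1.26% of all genes did) and 7 were higher with the replicate block (3.34% of all genes were). With the block in the 6 libraries alone 4 of the 17 were higher (0.566% of all genes were): Vegfa, Bnip3, Ndrg1 and P4ha2. The median log2 fold change of the 17 was 0.57, beside 0.00 over all genes tested. The other 6 genes past the threshold with the block were Ndrg1, P4ha2, P4ha1, Egln3, Vegfa and Bnip3. Vegfa, the growth factor for blood vessels, measured 138, 86.5 and 205 CPM in tau and 72.7, 46.6 and 103 CPM in PBS, so the groups overlapped while each tau library lay above the PBS library of its number. Its log2 fold change was 0.94 ± 0.20 with the block (edgeR adjusted p 0.0297) and 0.95 ± 0.29 without it (adjusted p 0.0787). Bnip3, which marks mitochondria for removal, differed by 0.90 ± 0.19 with the block (edgeR adjusted p 0.0293) and 0.93 ± 0.28 without it (adjusted p 0.0762). P4ha2, a subunit of the enzyme that hydroxylates collagen, lay at 18.6 to 44.5 CPM in tau and at most 17.8 CPM in PBS, without overlap, and differed by 1.05 ± 0.22 with the block (edgeR adjusted p 0.0286). Ndrg1 measured 23.6, 13.8 and 47.6 CPM in tau and 9.60, 7.39 and 12.3 CPM in PBS, also without overlap. Kdm3a and Mxi1 moved by 0.07 and 0.09 on the log2 scale and passed neither fit. The median of the 17 was 0.35 without tau replicate 3 and 0.72 without tau replicate 2.

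Among 25 genes of glucose uptake, glycolysis and lactate, Hk2 was the 1 gene that passed the test, where 1.26% of all genes rose. With the block 5 were higher and 1 was lower (3.34% and 3.82% of all genes), and with the block in the 6 libraries alone Hk2 and Ldha were higher (0.566% of all genes were). The 4 others higher with the block were Tpi1, Pgk1, Pgam1 and Ldha, enzymes of the lower steps of glycolysis and of lactate production. Ldha measured 683, 445 and 807 CPM in tau and 450.3, 337 and 502 CPM in PBS, overlapping between groups and higher in tau within each number. The gene lower with the block was Aldoc, the aldolase of astrocytes, at 608, 450.0 and 285 CPM in tau and 1244, 674 and 1084 CPM in PBS. Slc16a3, a lactate exporter, averaged 11.8 ± 4.72 CPM (SD, n = 3) in tau against 2.73 ± 2.60 CPM in PBS and did not pass (edgeR adjusted p 0.103). The median of the 25 was 0.22 (0.11 without tau replicate 3 and 0.37 without tau replicate 2). Cholesterol synthesis genes showed a like picture: of 19 tested, Dhcr7 rose by 0.65 ± 0.14 (edgeR adjusted p 0.0414), where 1.26% of all genes rose. With the block 6 were higher (3.34% of all genes were) and with the block in the 6 libraries alone 0 were. Among the 6 were Hmgcs1 and Sqle, enzymes of the pathway, and Stard4, a sterol carrier. The list median was 0.32 (0.19 without tau replicate 3).

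**Figure D2:**
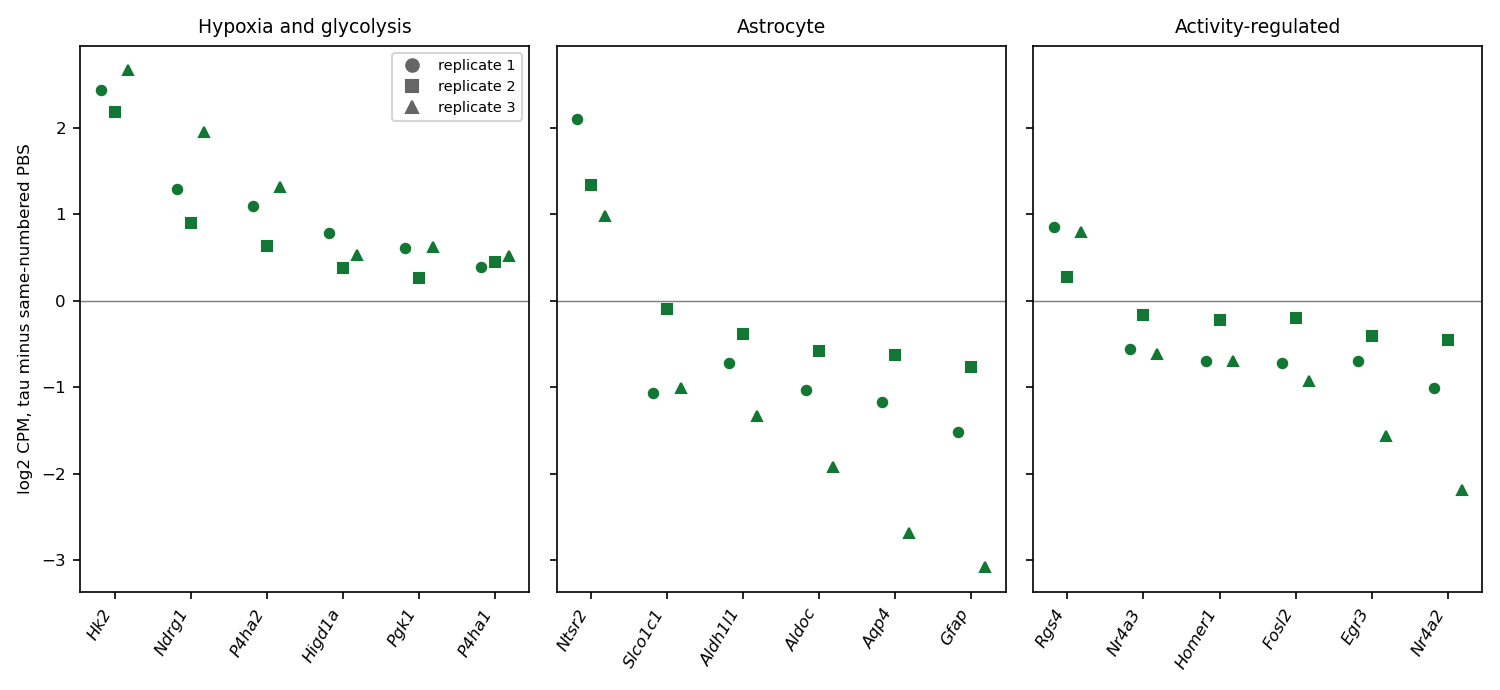
Difference in log2 CPM between each tau library and the PBS library of the same replicate number (y axis) for 6 genes each of the hypoxia and glycolysis lists, the astrocyte list and the activity lists, with 1 symbol per replicate number. All 3 differences have the same sign for each of the 18 genes drawn, and number 2 shows the smallest difference for Gfap, Egr3 and Nr4a2. The genes were picked from the lists with their values known. Where the groups do not overlap the 3 signs must be equal, so equal signs were favoured in advance. Listed genes such as Fos, Egr1, Slc1a2 and Kdm3a were not drawn.

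Among genes induced by neuronal activity, a few regulators fell and the best known early genes did not pass. The immediate early genes Fos, Egr1, Arc and Npas4 did not pass the test: Egr1 moved by 0.03 ± 0.11 on the log2 scale, and Npas4 by 0.37 ± 0.14 (edgeR adjusted p 0.139). Of 18 tested, 3 fell and 0 rose, beside 1.76% of all genes that fell. Nr4a2, an orphan nuclear receptor, measured 226, 244 and 98.7 CPM in tau and 454, 334 and 450.5 CPM in PBS. All tau libraries lay below all PBS libraries, by −1.12 ± 0.28 (edgeR adjusted p 0.0494). Egr3, a zinc finger transcription factor, measured 390.4, 378 and 224 CPM in tau and 632, 502 and 664 CPM in PBS, and fell by 0.86 on the log2 scale (SE 0.19; edgeR adjusted p 0.0414). Fosl2, an AP-1 subunit, measured 296, 311 and 265 CPM in tau and 489, 357 and 501 CPM in PBS, and fell by 0.63 (SE 0.13; edgeR adjusted p 0.0364). Nr4a3 lay at 625 to 658 CPM in tau and 732 to 964 CPM in PBS and passed with the block only (adjusted p 0.0611 without it and 0.0306 with it, edgeR).

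Of 22 later activity-induced genes, 3 fell and 1 rose, beside 1.76% and 1.26% of all genes. None of these 4, nor of the 18 early genes, passed with the block in the 6 libraries alone. Crem, whose product represses cAMP-responsive genes, measured 21.6, 17.3 and 16.6 CPM in tau against 39.3, 23.1 and 34.8 CPM in PBS. Homer1, a scaffold of the postsynaptic density, measured 102, 113 and 99.5 CPM in tau against 166, 132 and 162 CPM in PBS. Plk2, a kinase that weakens synapses after high activity, measured 336, 322 and 288 CPM in tau against 475, 389.6 and 478 CPM in PBS. Their log2 fold changes were −0.80, −0.54 and −0.50. Rgs4, which shortens G protein signalling, went the other way, from 386, 480.5 and 495 CPM in PBS to 699.9, 580.2 and 856 CPM in tau (0.65 ± 0.14, edgeR adjusted p 0.0404). Bdnf, the neurotrophin induced by activity, lay at 197 to 282 CPM in tau and 215 to 326 CPM in PBS and did not pass. The list median was −0.18 for the early genes (−0.04 without tau replicate 3) and −0.24 for the later genes (−0.14 without PBS replicate 1).

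Several astrocyte genes were lower with tau. Gfap (chromosome 11, 102887336 to 102900912, minus strand), the intermediate filament of astrocytes, measured 1971, 1763 and 672 CPM in tau and 5623, 2994 and 5675 CPM in PBS. All tau libraries lay below all PBS libraries, and the log2 fold change was −1.70 ± 0.40 (edgeR adjusted p 0.0473). Aldh1l1, a folate enzyme used to mark astrocytes, measured 48.7, 50.4 and 33.7 CPM in tau against 80.2, 65.7 and 84.7 CPM in PBS, and fell by 0.79 (SE 0.18; edgeR adjusted p 0.0447). Of 24 astrocyte genes tested, 2 fell and 1 rose, beside 1.76% and 1.26% of all genes. With the block 4 were lower and 1 was higher (3.82% and 3.34% of all genes). With the block in the 6 libraries alone 0 were lower and 1 was higher, beside 0.421% and 0.566% of all genes (Gfap adjusted p 0.0659, edgeR). The tau libraries lay wholly below PBS for 13 of the 24 and wholly above for 1, where 13.1% and 13.6% of all genes tested did. Their median was −0.52 (−0.33 without tau replicate 3). Ntsr2, a neurotensin receptor of astrocytes, was the one that rose, from 3.12, 7.12 and 5.83 CPM in PBS to 13.7, 18.1 and 11.6 CPM in tau (1.41 ± 0.34, edgeR adjusted p 0.0491). Slc1a2, the main astrocyte glutamate transporter, lay at 1158 to 1522 CPM in tau and 1244 to 1590.2 CPM in PBS, and did not pass. Summed over the list, the level was 10080, 10210 and 6972 CPM in tau and 16400, 12080 and 15990 CPM in PBS, without overlap.

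Markers of other cells differed in their own ways. Of 15 microglia genes 5 had enough counts to be tested, and 0 passed. Cd68, a lysosomal protein of macrophages, lay at 6.47, 5.86 and 19.4 CPM in tau and 2.57, 3.76 and 3.89 CPM in PBS, and Csf1r, the receptor for the growth factor of microglia, at 4.23 to 6.79 CPM in tau and 2.43 to 3.27 CPM in PBS. Both passed with the block in 12 libraries (edgeR adjusted p 0.0397 and 0.0465) and not with the block in the 6 libraries alone (0.0647 and 0.0691), and the defining genes Cx3cr1, Tmem119, Trem2 and C1qa were too low to be tested, and the list summed to 37.2 to 52.2 CPM in tau and 28.6 to 30.4 CPM in PBS. Endothelial, mural and fibroblast genes summed to 27.7 to 35.9 CPM in tau and 42.1 to 51.6 CPM in PBS, without overlap, and 0 of 11 tested passed. Proliferation genes had 0 of 17 past the threshold. Whether these cell type differences bear on the other groups of genes was not tested.

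The 14 genes with the largest rise, by a rule that asked for a mean of at least 1 on the log2 CPM scale and no overlap of the groups, were led by Pdlim1 and Hk2. Pdlim1 (chromosome 19, 40221173 to 40271842, minus strand), a cytoskeletal adaptor that binds alpha-actinin, measured 5.73, 2.27 and 15.5 CPM in tau and 0.505, 1.03 and 1.24 CPM in PBS (log2 fold change 3.04 ± 0.67, edgeR adjusted p 0.0414). Genes of peptide signalling were among them. Apln, which encodes the peptide ligand apelin, measured 5.68, 4.99 and 4.17 CPM in tau and 1.01, 1.55 and 2.06 CPM in PBS. Pdyn, the precursor of dynorphins, opioid peptides of dentate granule cells, measured 6.21, 7.45 and 3.07 CPM in tau and 1.52, 1.99 and 2.02 CPM in PBS. Ntsr1, a neurotensin receptor of neurons, measured 10.4, 9.53 and 13.3 CPM in tau and 4.09, 4.81 and 4.51 CPM in PBS. Cbln1, a secreted organiser of synapses, and Amigo2, an adhesion protein enriched in hippocampal area CA2, rose by 1.29 each. Lsp1, an actin-binding protein, had the lowest adjusted p of all genes, shared with others (63.1, 64.9 and 82.6 CPM in tau, 23.0, 34.2 and 30.1 CPM in PBS; 1.27 ± 0.17, edgeR adjusted p 0.0222). Map3k21, Epha10, Reep6 and Upp2 rose by 1.30 to 1.70. Amy1 rose by 1.46 but belongs to a cluster of near-identical amylase genes, so its counts are uncertain.

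Of the 14 genes with the largest fall, 13 are shown here. Papss2, which makes the sulfate donor for matrix sugars, measured 3.05, 1.47 and 0.825 CPM in tau and 21.1, 4.74 and 20.2 CPM in PBS (−3.12 ± 0.70, edgeR adjusted p 0.0431). Slc25a18, a mitochondrial glutamate carrier, measured 11.3, 6.01 and 3.44 CPM in tau and 64.0, 16.6 and 44.9 CPM in PBS. Neat1, the long noncoding RNA that builds nuclear paraspeckles, measured 26.8, 19.2 and 7.25 CPM in tau and 132, 46.1 and 99.6 CPM in PBS. The rule again asked for no overlap of the groups, and in these 3 genes PBS replicate 2 was the lowest of the PBS libraries. Fmod, Col4a6 and Adamts18, which encode a matrix proteoglycan, a basement membrane collagen and a matrix protease, fell by 2.09, 1.81 and 1.75 on the log2 scale. C3, the central complement component, and Ifitm3, an interferon-induced antiviral protein, fell by 1.94 and 1.79. S1pr3, a sphingosine-1-phosphate receptor, measured 50.2, 63.7 and 22.5 CPM in tau and 186, 84.0 and 170.3 CPM in PBS.

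**Figure D3:**
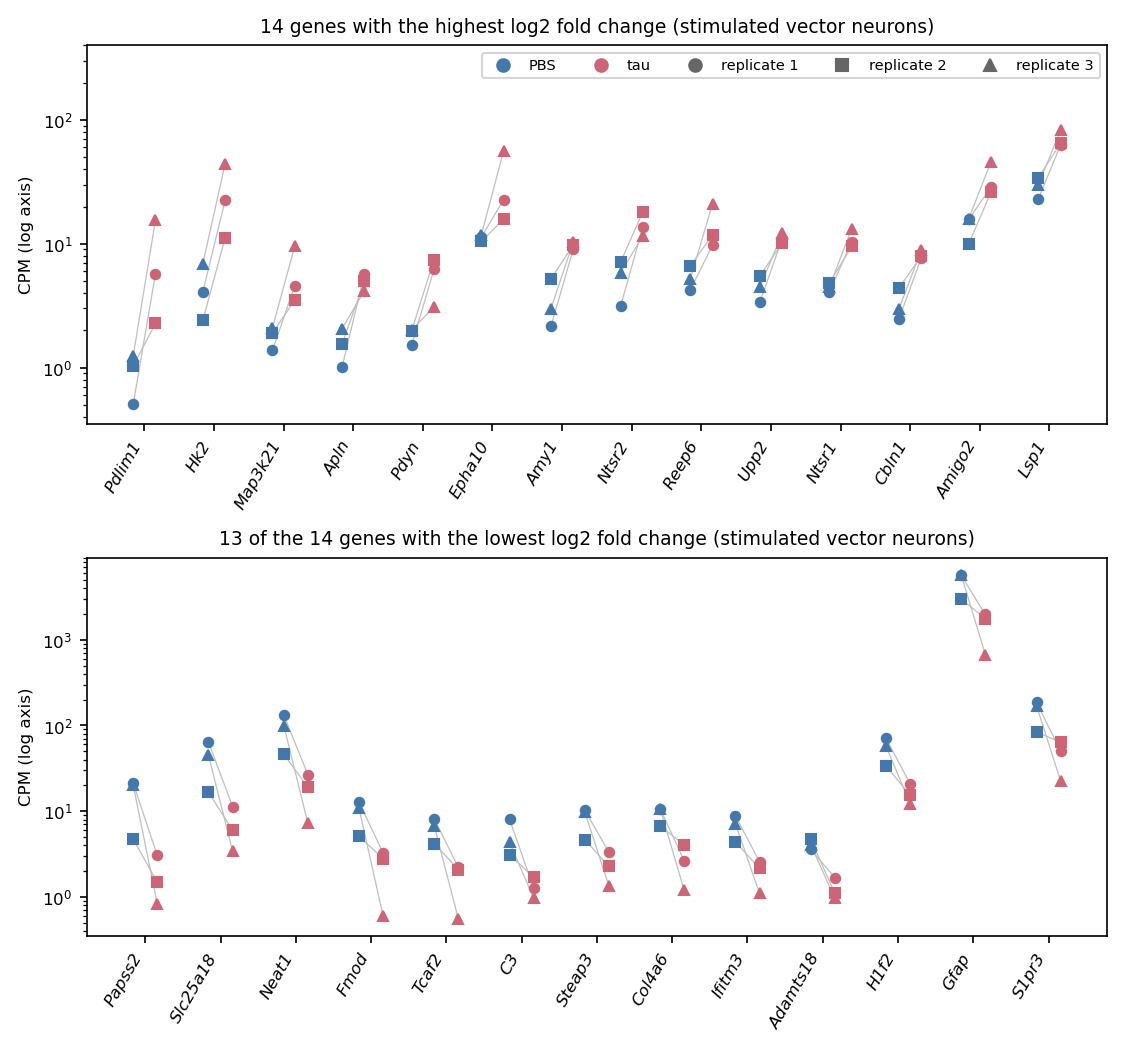
CPM on a log axis for the 14 genes with the highest and 13 of the 14 with the lowest log2 fold change in stimulated vector neurons, 1 point per library, with same-numbered PBS and tau libraries joined. The rule that chose these genes asked for no overlap of the groups. Tau replicate 3 is the most extreme tau library for Pdlim1, Hk2, Epha10, Papss2 and Neat1.

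Some replication-dependent histone genes, which package newly copied DNA, fell. Of 18 listed, 10 were tested and 4 fell (H1f2, H1f4, H2bc4 and H2bc6), where 1.76% of all genes did. Their median was −1.05. With the block in the 6 libraries alone 2 of the 7 tested, H1f2 and H2bc6, were lower (0.421% of all genes were). H1f2, a linker histone, measured 20.9, 15.4 and 12.2 CPM in tau and 71.1, 33.7 and 57.6 CPM in PBS (−1.74 ± 0.31, edgeR adjusted p 0.0289). H2bc4, a core histone, measured 12.7, 13.5 and 7.84 CPM in tau and 25.0, 18.8 and 22.6 CPM in PBS. H1f4 and H2bc6 lay at or under 3.63 CPM in every library. Most histone mRNAs of this kind lack a poly(A) tail. Rn45s, the precursor of ribosomal RNA and a sign of how much ribosomal RNA was left in a library, measured 3251, 2278 and 3019 CPM in tau and 4344, 11085 and 5183 CPM in PBS, or 0.236% to 0.329% of the counts in tau and 0.436% to 1.13% in PBS. Rn45s and the summed histone level were both lower in tau. The summed histone level was 40.4, 35.6 and 24.7 CPM in tau and 109.6, 61.4 and 89.9 CPM in PBS. The part of Rn45s in the histone values was not tested.

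Few stress and defence genes passed the test. Of 24 unfolded protein and integrated stress response genes, Herpud1, which serves the degradation of misfolded proteins of the endoplasmic reticulum, rose from 47.2, 48.3 and 47.0 CPM in PBS to 58.8, 55.9 and 67.1 CPM in tau (0.35 ± 0.08, edgeR adjusted p 0.0487). With the block 4 rose and 1 fell (3.34% and 3.82% of all genes did), the others being Ddit3, Xbp1, Dnajb9 and, lower, the chaperone Pdia4. Of 14 heat shock genes Hspa1a rose by 1.22 (SE 0.23, edgeR adjusted p 0.0297), and its near-identical neighbour Hspa1b makes its counts uncertain. With the block 1 of the 14 was higher and 1 was lower (3.34% and 3.82% of all genes). The tau libraries lay wholly above PBS for 2 and wholly below for 3, where 13.6% and 13.1% of all genes tested did. The median of the 14 was 0.005. Of 16 NRF2 antioxidant genes Gsr, glutathione reductase, fell from 90.7, 77.4 and 89.4 CPM in PBS to 60.5, 66.6 and 51.7 CPM in tau (edgeR adjusted p 0.0489). With the block 3 of the 16 were lower (3.82% of all genes were). The tau libraries lay wholly below PBS for 7 and wholly above for 1, where 13.1% and 13.6% of all genes tested did. The median of the 16 was −0.32, and their summed level was 851 to 1193 CPM in tau and 1287 to 1360.0 CPM in PBS. Of 14 interferon and 12 inflammatory genes tested, Ifitm3 and C3 were the ones that passed. With the block in the 6 libraries alone 0 genes of the unfolded protein, NRF2, interferon and inflammatory lists passed. In that fit 1 heat shock gene was higher and 0 were lower (0.566% and 0.421% of all genes were). The interferon genes had a median of −0.40 and summed to 74.0 to 79.8 CPM in tau and 84.9 to 102.5 CPM in PBS, without overlap. Doc2b, a calcium sensor of transmitter release, was the 1 gene of 23 presynaptic genes past the threshold, at 21.9, 20.7 and 14.4 CPM in tau and 46.1, 31.4 and 39.4 CPM in PBS. Kcnq5, an M-type potassium channel, was the 1 of 25 potassium channel genes, at 249.5, 209 and 319 CPM in tau and 142, 132 and 152 CPM in PBS (0.87 ± 0.16, edgeR adjusted p 0.0297).

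Few neuronal subtype genes passed the test. Sst, the peptide of a class of GABAergic interneurons, measured 132, 116 and 105 CPM in tau and 198, 177 and 175 CPM in PBS, and fell by 0.64 (SE 0.13; edgeR adjusted p 0.0344). It was the 1 of 15 GABAergic neuron genes past the threshold. The list median was −0.34, and 6 of the 15 lay wholly below PBS and 0 above, where 13.1% and 13.6% of all genes tested did. The summed level was 1716 to 1920.0 CPM in tau and 1996 to 2452 CPM in PBS, without overlap. Prox1, a dentate granule cell transcription factor, measured 123, 148 and 81.4 CPM in tau and 184, 201 and 203 CPM in PBS, and was the 1 of 10 excitatory neuron genes. With the block 2 of the 10 were higher and 2 were lower (3.34% and 3.82% of all genes). With the block in the 6 libraries alone Slc17a6 and Neurod6 were higher and 0 were lower (0.566% and 0.421% of all genes), and Prox1 did not pass (edgeR adjusted p 0.0636). Slc17a6 differed by 0.86 and Neurod6 by 0.47 in the fit without the block. None of 20 glutamate receptor, 14 GABA receptor, 23 postsynaptic, 23 sodium and calcium channel, 23 tau and microtubule, 24 lysosome and autophagy or 13 acetyl-CoA enzyme genes passed the test, and the medians of those lists lay between −0.05 and 0.06.

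**Figure D4:**
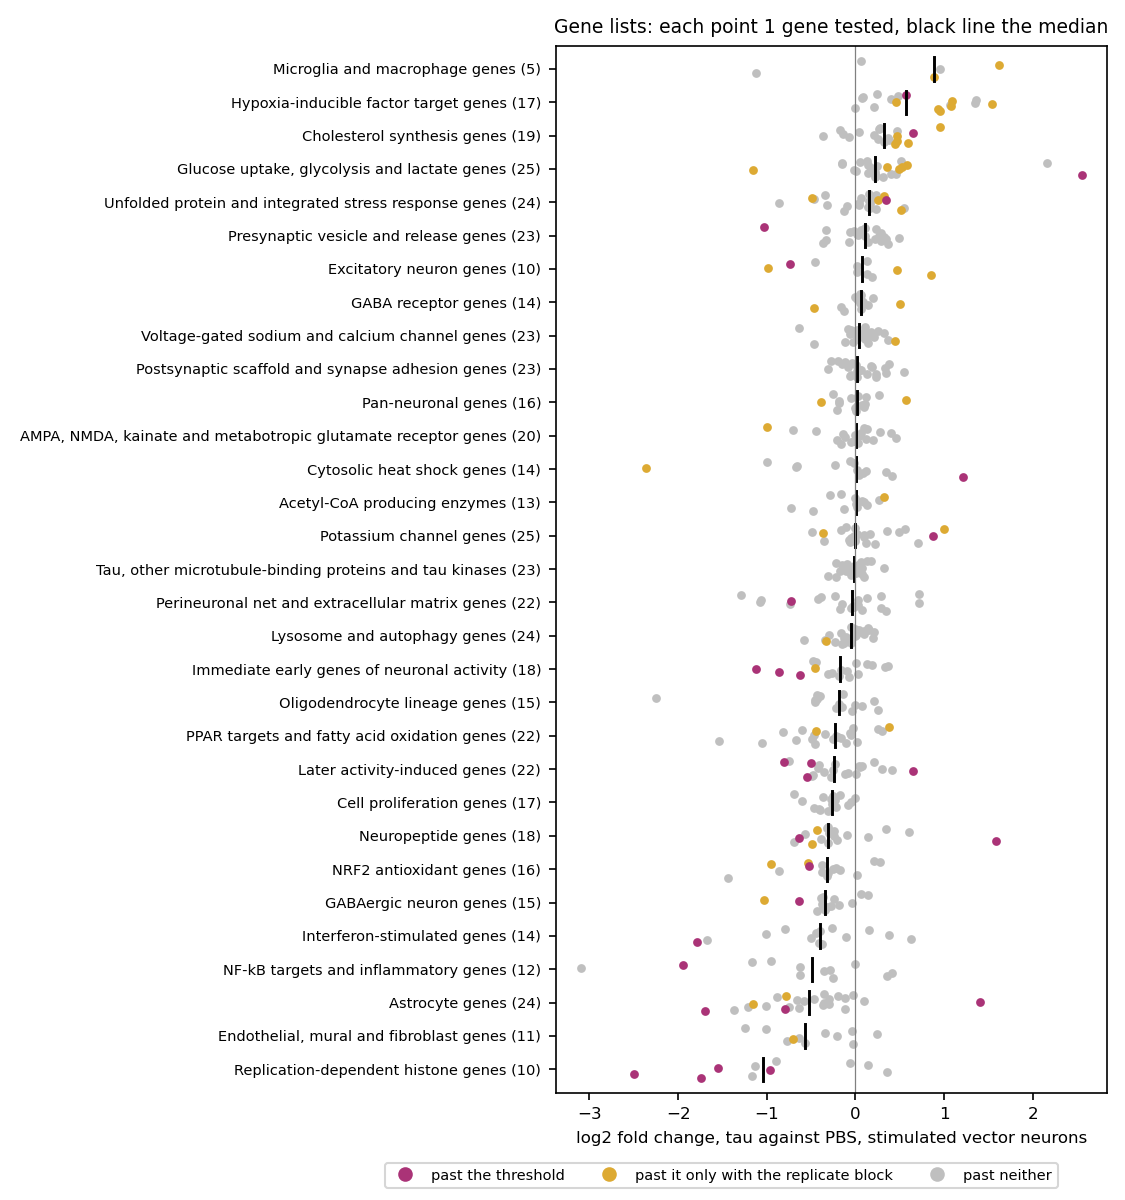
Log2 fold change of tau against PBS in stimulated vector neurons (x axis) for every gene tested of 31 lists, with the number tested in brackets, coloured by whether it passed the test, passed it with the replicate block, or passed neither; the black line is the median. The medians run from −1.05 for replication-dependent histone genes to 0.89 for the 5 microglia genes.

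With the Acss2 virus, tau changed 31 genes of 14939 (0.208%; 28 higher, 0.187%, and 3 lower, 0.0201%), in libraries apart from those of the vector comparison but in the same fit. Of these 31, 4 were also among the 451 of the vector neurons, which is 12.9% of the 31 and 0.887% of the 451. They were Hk2, Kcnq5 and Cdk14, higher in both, and Lhx1, lower in both, the last at under 1 CPM in vector. The genes that rose with vector had a median of 0.15 with the Acss2 virus, and those that fell had a median of −0.16. Of the 188 that rose 146 had the same sign with the Acss2 virus (77.7%). Of the 263 that fell 209 had it (79.5%), beside 58.5% of all genes. The difference between the effects was tested directly as an interaction: 0 genes passed after adjustment in edgeR (2135 at an unadjusted p under 0.05; 131 in DESeq2), and with the replicate block 166 passed. Some genes kept a like effect under both viruses: Hk2 differed by 2.56 with vector and 2.99 with the Acss2 virus (unadjusted interaction p 0.558, edgeR), and Higd1a by 0.57 and 0.56. For others the estimates lay apart: Gfap differed by −1.70 and −0.10 (unadjusted interaction p 0.0136), Papss2 by −3.12 and 0.44 (0.00233), Pdyn by 1.59 and −0.14 (0.00246) and Fosl2 by −0.63 and 0.04 (0.00283). All are edgeR without the block, and none was below 0.05 after adjustment there. With the block the edgeR adjusted p was 0.0474 for Papss2 and 0.0815 to 0.148 for the others. These genes were chosen by their vector effect, which is part of this contrast, so low interaction p-values were favoured in advance.

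In unstimulated vector neurons 0 genes of 14639 passed in edgeR (1361 at an unadjusted p under 0.05; 3 in DESeq2), and most of the 451 had the same direction. Of the 188 genes that rose in stimulated vector neurons, 186 were measured there and 182 had the same sign (97.8%), and of the 263 that fell, 252 of 259 had it (97.3%), beside 75.5% of all genes. Stimulated and unstimulated libraries of replicate 2 deviated together, with a correlation across genes of 0.638 in tau and 0.497 in PBS, and stimulated tau replicate 3 deviated with unstimulated tau replicate 1 (0.584). Whether the experiments share cultures is not given in the sources used here, so the shared direction is not independent support. Gfap differed by −1.59 there (−0.59 without PBS replicate 3) and Hk2 by 2.88. Among activity genes, Egr3 differed by −0.15, Nr4a2 by −0.12 and Fosl2 by −0.04 in unstimulated neurons. Each of the 3 changed sign when 1 library was left out (Egr3 was 0.56 without PBS replicate 1), and whether these differ from the stimulated effects was not tested, since the tables were scaled separately.

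In the cultures without virus 0 of 16341 genes passed in edgeR (2272 at an unadjusted p under 0.05; 308 in DESeq2). Of the 188 genes that rose, 41 of 185 measured had the same sign (22.2%), and of the 263 that fell, 69 of 255 had it (27.1%), beside 37.7% of all genes. Gfap differed by 1.13 and C3 by 1.72 there, opposite to the vector neurons, while Hk2 differed by 2.08 and Ntsr2 by 0.99, in the same direction. Without PBS replicate 3 Gfap differed by 0.69 and Ntsr2 by 0.49. Hk2 lay at 9.43, 8.35, 3.52 and 35.3 CPM in tau and 3.71, 4.71 and 1.66 CPM in PBS, so the groups overlapped. Replicate 4 was far the highest, and without it the log2 fold change was 1.09 (edgeR adjusted p with it 0.339). The medians of the astrocyte list were −0.52 in stimulated vector, −0.60 in unstimulated vector, −0.15 with the Acss2 virus and 0.60 without virus. Those of the hypoxia-inducible factor targets were 0.57, 0.53, 0.61 and 0.44 in the same order.

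**Figure D5:**
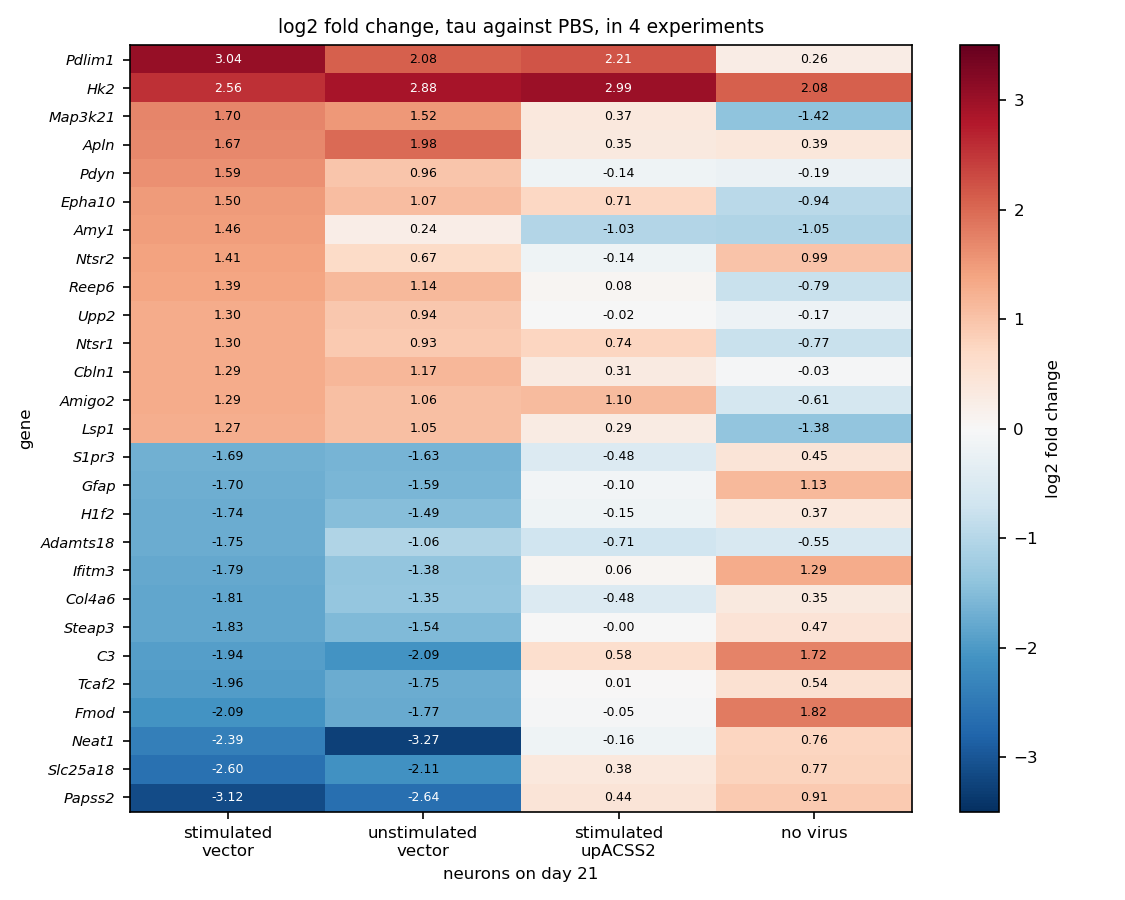
Log2 fold change of tau against PBS (colour and printed value) for 27 of the 28 genes with the largest changes in stimulated vector neurons (rows), in 4 experiments on day 21 (columns). Hk2 is 2.56 to 2.99 in the virus columns and 2.08 without virus, where it is 1.09 without tau replicate 4, while Gfap is −1.70 and −1.59 in the vector columns, −0.10 with the Acss2 virus and 1.13 without virus.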

How the data were processed

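RNA was measured by bulk RNA-seq of cultured hippocampal neurons. The deposited tables hold whole-number, unscaled counts for each gene symbol, made by the authors. The submitters' processing notes list STAR, featureCounts, HTSeq, DESeq2 and mm10, without versions or roles, and the strand setting and annotation are not given in the sources used here. Counts were analysed with edgeR 4.0.16 in R 4.3.3 (filterByExpr, TMM, quasi-likelihood test, Benjamini-Hochberg adjustment, threshold 0.05, two-sided), with all 12 stimulated libraries in 1 fit. CPM values use TMM-scaled library sizes. The unstimulated and virus-free libraries were fitted and scaled in tables of their own. Alternatives used DESeq2 1.42.0, limma 3.58.1 voom with quality weights, RLE size factors, no filter, the replicate block, fewer libraries and each library left out. The pairing check correlated deviations from group means: same-numbered vector libraries gave 0.134, 0.326 and 0.123, and differently numbered ones −0.235 to 0.117. The edgeR code was tested on simulated data. Genes named were the 14 highest and 14 lowest log2 fold changes past the threshold, with a mean of at least 1 log2 CPM no overlap of groups and no predicted or unnamed symbol, and up to 4 per list with the lowest p. Other named members of a list were chosen after their values were seen. The comparison and all lists were chosen with earlier results of these data known. Some items are not reported here.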

Additional observations from a re-analysis of the deposited data

Results flagged for a closer look

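In the 4 tau cultures without virus, 3 of the 28 genes with the largest changes had 1 library far from the other 3 (gap over range above Dixon's critical value, which chance exceeds in about 1 in 20 groups). Amy1 lay at 9.11, 8.08, 15.5 and 8.44 CPM, with a gap of 0.861 of the range for replicate 3. Cbln1 lay at 6.43, 7.38, 6.34 and 14.3 CPM, with a gap of 0.868 for replicate 4. Lsp1 lay at 6.27, 6.74, 11.4 and 6.33 CPM, with a gap of 0.91 for replicate 3.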

How the results depend on the processing

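In stimulated vector neurons the 451 genes became 1521 with DESeq2, 2024 with limma voom and quality weights, 1069 with the replicate block, 143 with the replicate block in the 6 libraries alone and 0 in those 6 without it. RLE size factors gave 462 and no filter gave 615. Leaving out 1 library gave 0 to 1293 genes. Together with the replicate block, an alternative chosen after seeing the data, this gave 0 without tau replicate 1, 2414 without tau replicate 2, 5 without tau replicate 3, 1 without PBS replicate 1, 835 without PBS replicate 2 and 0 without PBS replicate 3. With the Acss2 virus the 31 genes became 458 with DESeq2, 110 without a filter, 167 in its 6 libraries alone, 289 with voom, and 0 to 21 with 1 library left out. Its numbers did not pair (correlations of −0.115, 0.0979 and 0.156, beside −0.298 to 0.14 for differently numbered libraries), although the block in 12 libraries was fitted to them too. The replicate block gave 487 genes, or 212 in its 6 libraries alone. The interaction count of 0 became 131 with DESeq2, 166 with the replicate block and 2 with voom, and stayed at 0 with any 1 library left out. In unstimulated vector neurons the count of 0 became 3 with DESeq2 and 29 with all 24 unstimulated libraries. Without virus it became 308 with DESeq2, 951 with voom, 1 with RLE and 1 without a filter, and the replicate block gave 0. The cause of these moves was not tested. All 28 genes with the largest changes kept their direction and passed with DESeq2, RLE, no filter, the replicate block and voom. With the replicate block in the 6 libraries alone 14 of the 28 no longer passed. None of them passed in the 6 libraries alone without the block, or without tau replicate 1, tau replicate 3, PBS replicate 1 or PBS replicate 3. With 3 libraries a group an exact permutation test of 1 value cannot go below 0.1.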

Other observations

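Of 22 PPAR target and fatty acid oxidation genes 0 passed the test. Their median log2 fold change was −0.23, and their summed level was 823 to 917 CPM in tau and 909 to 932 CPM in PBS, overlapping between groups.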
